A study of Mus musculus with 8 samples.

Results

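The annexins are a family of calcium-dependent membrane-binding proteins, and 10 of their genes (Anxa1 to Anxa9 and Anxa11) were followed here from the 8-cell embryo to the blastocyst of the mouse. They were selected by gene symbol, as every probe set whose annotation carries exactly 1 of these symbols, and the family was chosen with its stage difference already known. The annexin values below are therefore a description, and their calls in a fit over all probe sets are no independent test of the family. The rule found 20 of the 45101 probe sets on the array, and these cover 9 of the 10 genes. The sole probe set annotated to Anxa11 carries 3 gene symbols, so no value is given for that gene.

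The study read RNA of whole wild-type embryos with 1-colour oligonucleotide arrays, 4 of 8-cell embryos at embryonic day 2.5 (66 h after the ovulation-timing injection of human chorionic gonadotropin) and 4 of blastocysts at day 4.5 (120 h after it). Both stages came from B6D2F1 females mated with B6D2F1 males, and all embryos had been taken as zygotes and cultured in KSOM medium under a gas mixture of CO2, O2 and N2, with no other treatment. The series title names transcription factor AP-2 gamma, tight junctions and formation of the cavity, so the comparison of stages asks which transcripts change while the embryo builds its outer epithelium and cavity. The labels do not say that the 4 arrays of a stage were separate pools of embryos, so the spread between them may be technical.

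Annexins share a core of repeated helical domains that binds acidic phospholipids, such as phosphatidylserine on the inner leaflet of the plasma membrane, when calcium is present. Their N-terminal tails differ and bind partners such as S100 proteins, and members of the family are known for linking membrane to the cortical actin cytoskeleton, for vesicle traffic and for closing wounds in the plasma membrane. In epithelia several annexins lie beneath the apical or junctional membrane, and the trophectoderm of the blastocyst is the first epithelium of the embryo.

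Signals are the deposited intensities, which had been scaled to a common mean on each array and give a transcript's relative level, not its amount per embryo. Each difference is the blastocyst mean less the 8-cell mean of log2(signal + 16), given with its standard error (SE), where 1 unit is a 2-fold change, and this scale understates the change of dim probe sets. A probe set was tested if it lay above the 40th percentile of its array (a signal of 28.3 to 35.7) on at least 4 of the 8 arrays, and it was called higher or lower at an adjusted p under 0.05 in limma over all tested probe sets. Of the 20 annexin probe sets 18 were tested. In that fit 13 were called higher in blastocysts, 1 lower and 4 neither, beside 33.6% of all 28229 tested probe sets called higher and 32.8% called lower. The 4 blastocyst values lay entirely above the 4 8-cell values for 12 annexin probe sets and entirely below them for 2, beside 31.4% and 29.8% of all tested probe sets. Since the genes were chosen on this contrast, these counts only describe them. Of the 13 called higher, 2 (both of Anxa6) had every 8-cell array under the 40th percentile. Those 2 passed the filter only through their blastocyst values. The median annexin difference was 1.79, and that of all tested probe sets was -0.01. Differences ran from -0.46 to 6.70 among the annexins, 11 of the 18 were 1 or more, and none was -1 or less. Among all tested probe sets 22.8% were higher by at least 1 and 19.9% were lower by at least 1.

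**Figure D1:**
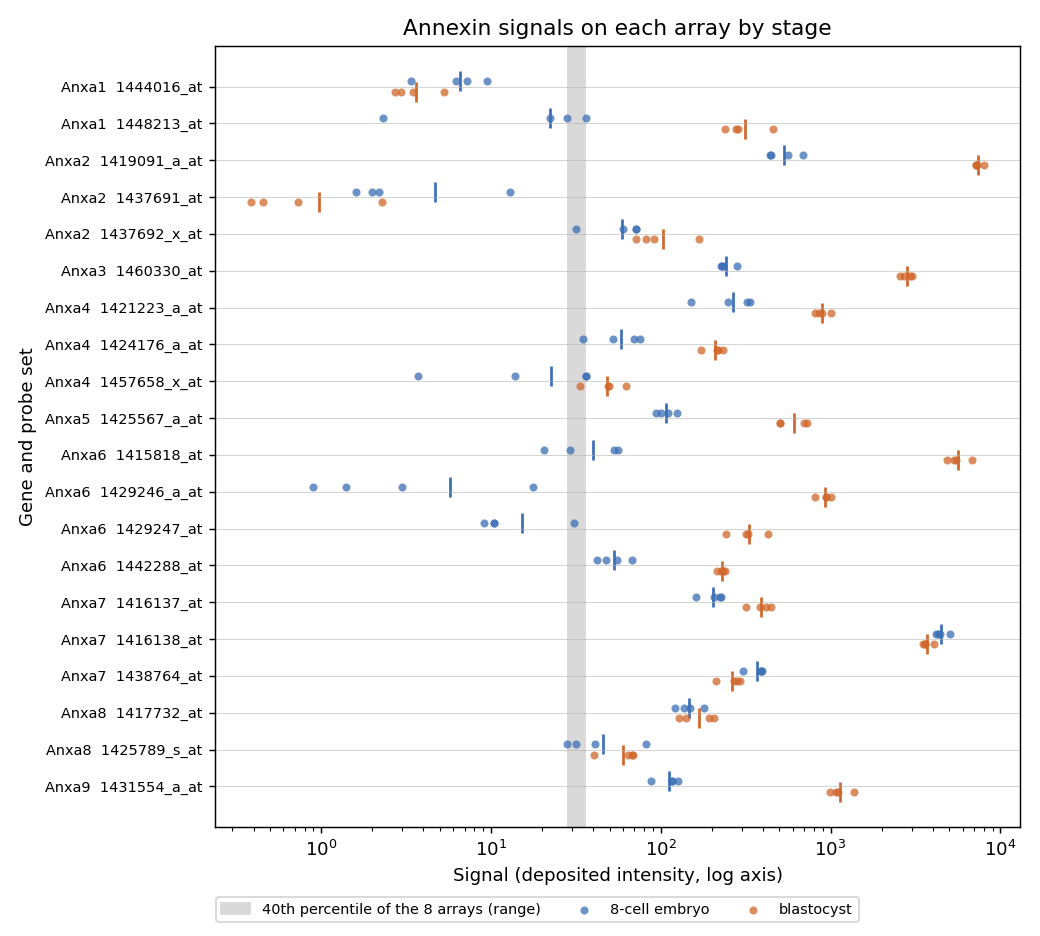
Signal of each annexin probe set (deposited intensity, log axis) on the 4 8-cell arrays (blue) and the 4 blastocyst arrays (orange), with each point an array and each vertical tick a stage mean. The grey band spans the 40th percentile of the 8 arrays. The blastocyst points lie right of all 8-cell points for 12 of the 18 tested probe sets, and the Anxa7 probe sets differ from one another in direction.

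Anxa6 stood farthest from the 8-cell level. It carries an additional copy of the annexin core and is known at the plasma membrane and on endosomes, where it takes part in cholesterol traffic and membrane repair. On its brightest probe set, 1415818_at, the 8-cell arrays gave signals of 55.9, 53.2, 20.6 and 29.3, and the blastocyst arrays 6804, 5449, 5330 and 4861. All blastocyst arrays were high and the stages did not overlap, with a difference of 6.70 (SE 0.23). In mean signal this was 39.8 ± 17.5 against 5611 ± 835 (SD, n = 4 each). Because 2 of the 4 8-cell arrays lay under the 40th percentile there, the size of the difference depends on the value added before taking logs, and it was 7.21 with 1 added and 5.78 with 64.

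The other 3 Anxa6 probe sets were also higher in blastocysts, by different amounts. Probe set 1429246_a_at read 3.0, 17.8, 1.4 and 0.9 in 8-cell embryos and 937, 939.7, 1006 and 812 in blastocysts, a difference of 5.49 (SE 0.22). Probe set 1429247_at read 9.1, 10.4, 30.8 and 10.4 and then 428, 329, 316 and 244, a difference of 3.49 (SE 0.24). For both, every 8-cell array lay under the 40th percentile, so the 8-cell level is at or near the floor of the array and the difference ranged with the added value from 3.83 to 7.74 for the former and from 2.30 to 4.501 for the latter. Probe set 1442288_at, which was above the 40th percentile on all 8 arrays, read 55.4, 67.6, 47.9 and 42.2 in 8-cell embryos and 232, 238, 228 and 214 in blastocysts, a difference of 1.83 (SE 0.14). The stages did not overlap on any of the 4 Anxa6 probe sets. Over all 8 arrays, the genes whose mean-centred log2 profile lay closest to that of 1415818_at were Capn2, AA467197 and Plac1, with root mean square differences of 0.23, 0.26 and 0.27 log2 units.

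Anxa2 and Anxa1 are the annexins best known for S100 partners. Anxa2 binds S100a10 in a complex beneath the plasma membrane that holds actin and the scaffold protein Ahnak, and on the cell surface it binds plasminogen and its activator. On the brightest Anxa2 probe set, 1419091_a_at, the 8-cell arrays gave 445, 686, 559 and 438.5 and the blastocyst arrays 7259, 7163, 7148 and 8004. The blastocyst arrays were all high and close to one another, at 7393 ± 410 against 532 ± 117 (SD, n = 4 each), and the difference was 3.78 (SE 0.17), or 13.7-fold. The second tested Anxa2 probe set did not show a change of this size. Probe set 1437692_x_at read 60.2, 31.9, 71.9 and 71.7 in 8-cell embryos and 91.7, 71.6, 167 and 81.4 in blastocysts, the stages overlapped, and the difference of 0.64 (SE 0.27) was not called. It ranged from 0.42 to 0.94 over 17 alternatives and was called in 5 of them. An identifier ending in _x_at marks probes that may also match other transcripts. The remaining Anxa2 probe set, 1437691_at, was under the filter, with no signal above 13.0 on any array.

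Anxa1, which is known as a regulator of inflammation through formyl peptide receptors and as a substrate of growth factor receptor kinases, was near the floor of the array in 8-cell embryos. Probe set 1448213_at gave 36.5, 2.3, 27.9 and 22.3 there and 460.0, 277, 287 and 238 in blastocysts. The stages did not overlap, and 1 of the 4 8-cell arrays lay above the 40th percentile. The difference was 3.17 (SE 0.33), and it was 4.17 with 1 added before taking logs and 2.12 with 64 added. A second Anxa1 probe set, 1444016_at, was under the filter at both stages, with means of 6.58 ± 2.53 and 3.62 ± 1.17 (SD, n = 4 each), so the change read for Anxa1 rests on 1 probe set.

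RefSeq promoter windows (mouse assembly GRCm38.p6) were given for 8 of the 10 annexins, 11 windows in all, with none for Anxa3 or Anxa6. The 250 bases before the annotated transcription start were searched for 5 short motifs. These were GCCNNNGGC (the AP-2 family motif, searched because the series title names AP-2 gamma), GGAATG (TEAD), TGANTCA (AP-1) and GGGCGG (the GC box) on both strands, and TATAAA (the TATA box) on the strand of the gene. Matches of different motifs may overlap. Of all 32851 promoter windows of this length, 13.7% held the AP-2 motif, 12.6% the TEAD motif, 6.75% the AP-1 motif, 32.7% a GC box and 7.59% a TATA box. The Anxa2 window (chr9:69453433-69453682, plus strand) and the Anxa1 window (chr19:20390672-20390921, minus strand) are shown because both genes were higher in blastocysts and both windows hold a TATA box, 17 and 32 bases before the start. Capitals mark the motif matches, which in the Anxa2 window also include an AP-1 match 95 bases before the start and GC boxes 190, 48 and 24 bases before it, and in the Anxa1 window a TEAD match 236 bases before it. A match describes the letters of the window and is not evidence of binding.
Anxa2: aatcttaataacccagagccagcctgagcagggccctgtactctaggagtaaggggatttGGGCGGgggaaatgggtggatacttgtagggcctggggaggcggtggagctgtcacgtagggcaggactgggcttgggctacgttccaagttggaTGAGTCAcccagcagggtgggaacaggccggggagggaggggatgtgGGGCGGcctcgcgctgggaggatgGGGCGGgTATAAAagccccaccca
Anxa1: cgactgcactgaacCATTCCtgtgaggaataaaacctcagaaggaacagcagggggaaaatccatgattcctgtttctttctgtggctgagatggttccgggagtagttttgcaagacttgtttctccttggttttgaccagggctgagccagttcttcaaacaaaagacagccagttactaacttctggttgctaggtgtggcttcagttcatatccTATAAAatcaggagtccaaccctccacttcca

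Anxa3 and Anxa5 were each read by 1 probe set, and both were higher in blastocysts. Anxa3 is known from neutrophil granules and several epithelia. Its probe set 1460330_at gave 226, 234, 283 and 230.4 in 8-cell embryos and 3024, 2720.3, 2947 and 2560 in blastocysts. The lowest blastocyst array was far above the highest 8-cell array, and the difference of 3.45 (SE 0.13), or 10.9-fold, had the smallest SE among the called annexin probe sets. Anxa5 is the annexin used to stain exposed phosphatidylserine on dying cells, and it forms a shield over phosphatidylserine on placental trophoblast. Its probe set 1425567_a_at gave 94.4, 111, 99.8 and 126 and then 730.3, 503, 503 and 702. The stages did not overlap, and the difference was 2.32 (SE 0.17), or 5.01-fold.

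Of the 8 annexins with a promoter window, which leave out Anxa3 and Anxa6, Anxa9 and Anxa4 held the AP-2 motif. Anxa9 is an unusual member whose calcium-binding sites are degenerate, and it is known from stratified epithelia. Its probe set 1431554_a_at gave 116, 126, 87.4 and 117 in 8-cell embryos and 990.1, 1101, 1079.7 and 1369 in blastocysts. All blastocyst arrays were high, with a difference of 3.17 (SE 0.16), or 9.02-fold. Anxa4 is abundant under the apical membrane of secretory and absorptive epithelia. On its brightest probe set, 1421223_a_at, the 8-cell arrays gave 336, 322, 250.1 and 151 and the blastocyst arrays 893, 815, 1001 and 857. The stages did not overlap, and the difference was 1.75 (SE 0.23), or 3.36-fold. Probe set 1424176_a_at moved similarly, from 52.0, 69.8, 75.5 and 34.7 to 218, 172, 231 and 215, a difference of 1.63 (SE 0.20). The third Anxa4 probe set was dim. Probe set 1457658_x_at read 13.8, 36.5, 36.1 and 3.7 in 8-cell embryos and 33.6, 62.3, 48.9 and 49.3 in blastocysts, the stages overlapped, and 2 of the 4 8-cell arrays were under the 40th percentile. Its difference of 0.84 (SE 0.31) was called, and the call was lost without 8-cell replicate 1 (0.75) or replicate 4 (0.56), without blastocyst replicate 2 (0.74), replicate 3 (0.83) or replicate 4 (0.83), with no filter, and with 1 added before taking logs.

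The windows with an AP-2 match are shown with that match in capitals, 53 bases before the start in Anxa9 (chr3:95315181-95315430, minus strand) and 116 bases before it in Anxa4 (chr6:86793585-86793834, minus strand). Each of these genes also has a second annotated start, and those windows (chr3:95307193-95307442 and chr6:86775115-86775364) held none of the 5 motifs. The arrays do not tell which start is used, and AP-2 gamma was not perturbed on them.
Anxa9: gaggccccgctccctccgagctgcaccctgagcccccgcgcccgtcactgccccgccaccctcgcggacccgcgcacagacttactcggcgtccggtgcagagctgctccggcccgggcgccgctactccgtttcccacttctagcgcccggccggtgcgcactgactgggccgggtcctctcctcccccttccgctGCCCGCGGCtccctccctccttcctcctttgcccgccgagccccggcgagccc
Anxa4: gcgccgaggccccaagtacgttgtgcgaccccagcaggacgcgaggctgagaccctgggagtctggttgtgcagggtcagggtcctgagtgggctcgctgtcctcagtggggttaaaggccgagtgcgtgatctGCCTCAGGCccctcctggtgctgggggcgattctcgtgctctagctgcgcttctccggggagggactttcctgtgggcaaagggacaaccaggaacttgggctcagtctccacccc

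Anxa7 did not share the direction of these members. It is known for calcium-driven fusion of secretory vesicles. On its brightest probe set, 1416138_at, the 8-cell arrays gave 4443, 4288, 5058 and 4174 and the blastocyst arrays 3609, 3585, 3525 and 4091. All blastocyst arrays lay below all 8-cell arrays, but the difference of -0.28 (SE 0.13) was not called, and it was 0.08 after scaling to spike-in controls. Probe set 1438764_at gave 389, 388.8, 396 and 303 and then 283, 212, 291 and 269, again with no overlap. Its difference of -0.46 (SE 0.15) was the only one called lower among the annexins. That call was lost with spike-in scaling (-0.12) and without 8-cell replicate 1 (-0.43), 8-cell replicate 3 (-0.43) or blastocyst replicate 2 (-0.37). Probe set 1416137_at went the other way. It read 205, 161, 223 and 226 in 8-cell embryos and 449, 317, 414 and 386 in blastocysts with no overlap, a difference of 0.89 (SE 0.16) that was called higher. The 3 probe sets thus gave both directions for 1 gene, and which transcripts each of them reads was not examined. The genes closest in profile to 1438764_at were Trim27, Sf3b2 and Vapa, with root mean square differences of 0.10, 0.11 and 0.11 log2 units over the 8 arrays.

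Anxa8, which is known from late endosomes and from some epithelia, was not called on either of its probe sets. Probe set 1417732_at gave 179, 148.5, 121 and 137 in 8-cell embryos and 192, 207, 128 and 141 in blastocysts. The stages overlapped and the difference of 0.16 (SE 0.19) was not called. Probe set 1425789_s_at gave 31.5, 41.2, 28.1 and 81.9 and then 40.3, 68.5, 64.2 and 67.8, with a difference of 0.36 (SE 0.26) that was not called either. These data do not show that Anxa8 was unchanged, since without 8-cell replicate 4 the difference on 1425789_s_at was 0.61 and was called. The window of Anxa8 (chr14:34085729-34085978, plus strand) held none of the 5 motifs. That of Anxa7 (chr14:20479942-20480191, minus strand) held GC boxes 200, 71, 57 and 28 bases before the start, in capitals, and no other of these motifs, and it is shown beside the 4 above as the window of an annexin not called higher on its brightest probe set. A second Anxa7 window (chr14:20480134-20480383, minus strand), which overlaps the first, held 1 GC box 8 bases before its start. The Anxa5 window held none of the 5 motifs, and that of Anxa11 held 3 GC boxes. In all, the AP-2 motif was found in 2 of the 11 annexin windows, beside its 13.7% of all windows.
Anxa7: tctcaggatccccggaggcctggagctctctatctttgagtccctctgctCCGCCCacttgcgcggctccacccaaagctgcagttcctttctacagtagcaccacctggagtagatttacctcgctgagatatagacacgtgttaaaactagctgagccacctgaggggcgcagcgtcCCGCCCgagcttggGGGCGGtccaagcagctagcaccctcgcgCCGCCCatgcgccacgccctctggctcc

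**Figure D2:**
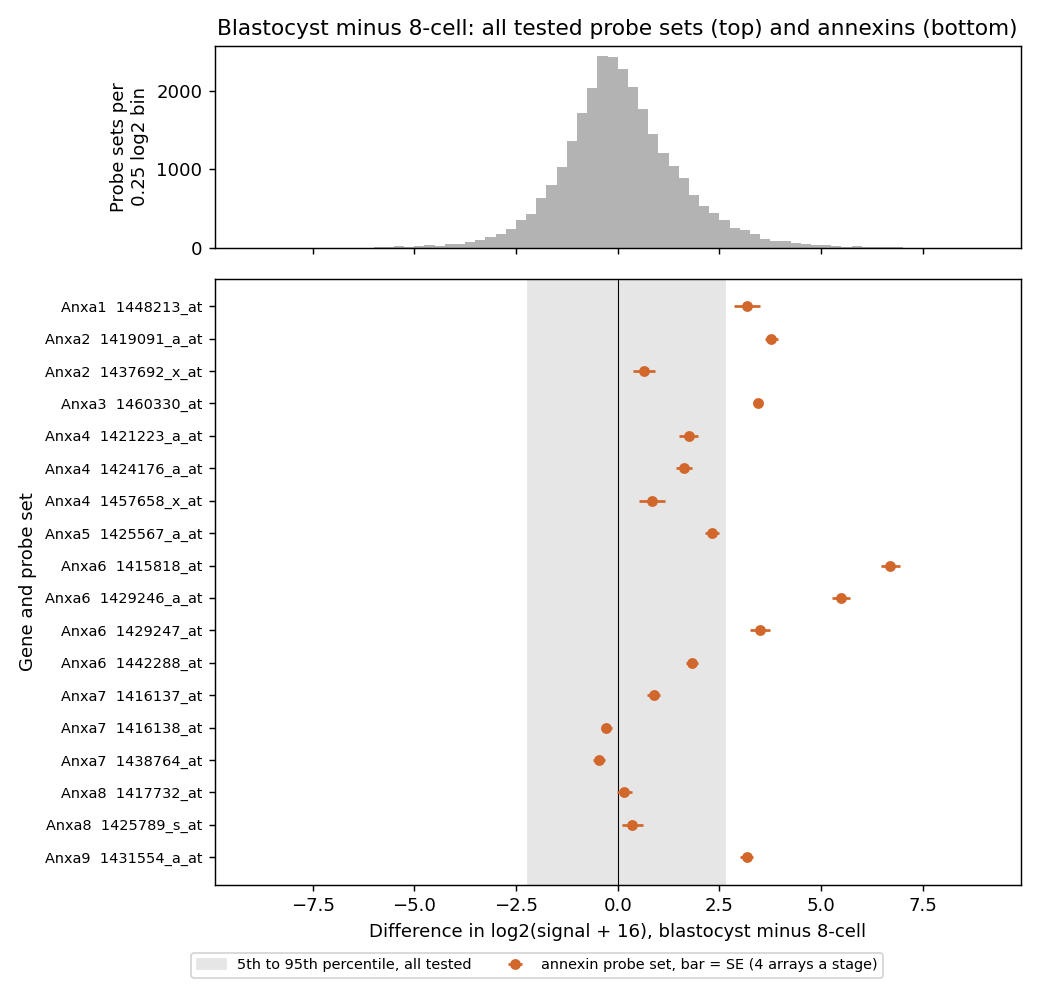
Stage difference in log2(signal + 16), blastocyst minus 8-cell, for all 28229 tested probe sets (top, number per bin of width 0.25) and for the 18 tested annexin probe sets (bottom, points with SE, 4 arrays a stage). The grey band spans the 5th to the 95th percentile of all tested differences, -2.21 to 2.65. The annexin points right of the band belong to Anxa1, Anxa2, Anxa3, Anxa6 and Anxa9, and of the Anxa7 points left of 0 the one at -0.28 moved to 0.08 with spike-in scaling.

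With 1 probe set per gene, the brightest, 7 of the 9 annexins were called higher, none was called lower, and Anxa7 and Anxa8 were not called. Among all 13276 genes tested in this way 37.5% were called higher and 34.2% lower. The median difference was 3.17 for the annexins and 0.02 for all genes. Differences above 3 were found on 7 of the 18 tested annexin probe sets and on 3.63% of all tested probe sets. Of the 7, 2 (both of Anxa6) passed the filter only through their blastocyst values. These shares describe a family that was chosen with the contrast in view. On the brightest probe sets the order of the differences was Anxa6 (6.70), Anxa2 (3.78), Anxa3 (3.45), Anxa1 and Anxa9 (both 3.17), Anxa5 (2.32), Anxa4 (1.75), Anxa8 (0.16) and Anxa7 (-0.28). Neighbours in this order that lay within 2 combined SE of each other were Anxa2 and Anxa3 (1.56 SE), Anxa3 and Anxa1 (0.78 SE), Anxa1 and Anxa9 (0.01 SE), and Anxa8 and Anxa7 (1.96 SE).

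The annexins differed in where their 8-cell signals lay against the 40th percentile. Anxa2, Anxa3, Anxa4, Anxa5, Anxa7, Anxa8 and Anxa9 lay above it on all 4 8-cell arrays on their brightest probe sets. Anxa6 did so on 2 of the 4 and Anxa1 on 1 of the 4. All 9 genes lay above it on all 4 blastocyst arrays. This percentile is a rank within the array and does not show that a transcript was detected. Of 7 listed leukocyte markers, 3 also lay above it on all 4 8-cell arrays, among them Csf1r at 146.5 ± 31.7 (SD, n = 4). Of the 6 genes with more than 1 probe set, Anxa6 was called higher on each. Anxa4 was called higher on each too, with a call on the dim probe set that depended on single arrays. The tested probe sets of Anxa2 differed in size and call, and those of Anxa7 in direction. Neither Anxa8 probe set was called, and the second one of Anxa1 was under the filter. Anxa3, Anxa5 and Anxa9 rest on 1 probe set each.

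The annexins outside the 10 were at the floor of the array. Anxa10 gave 6.90 ± 7.19 in 8-cell embryos and 11.9 ± 8.08 in blastocysts, and Anxa13, an annexin of intestinal epithelium, gave 18.4 ± 7.18 and 10.5 ± 5.72 (SD, n = 4 each), so neither was tested.

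Annexin partners and other membrane genes were read from lists, with 1 probe set per gene. These lists were also chosen with earlier results of these data known. Their counts and adjusted p values, here and in the next 4 paragraphs, therefore only describe them. Of 7 calcium-binding partners 5 were tested, and all 5 were called higher in blastocysts, beside 37.5% of all genes, with a median difference of 1.58. S100a10, the partner of Anxa2, went from 670 ± 254 to 5874 ± 371 (SD, n = 4 each), a difference of 3.19 (SE 0.27, limma adjusted p = 3.86e-06). Its other probe sets gave 3.86 and 0.48, and the latter was not called. The penta-EF-hand protein Sri (sorcin), which binds Anxa7, rose by 6.72 (SE 0.35, limma adjusted p = 1.81e-07), from a signal of 32.0 ± 21.4 in 8-cell embryos. That difference was 7.49 with 1 added before taking logs and 5.63 with 64, and the other tested Sri probe sets gave 4.64 and 2.375. Smaller rises were seen for Pef1 at 1.58 (SE 0.14, limma adjusted p = 6.01e-06), for S100a6, which binds Anxa2, Anxa6 and Anxa11, at 0.83 (SE 0.22, limma adjusted p = 0.00684), and for Pdcd6, the partner of Anxa11, at 0.43 (SE 0.11, limma adjusted p = 0.00594). S100a4 was under the filter, and S100a11, the partner of Anxa1, has no probe set with a single symbol.

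Of 8 genes for scaffold, plasminogen and receptor partners 3 were tested, 2 were called higher and 1 lower, beside 37.5% and 34.2% of all genes. Ahnak, the large scaffold held by Anxa2 and S100a10, rose from 226 ± 52.5 to 7841 ± 1044 (SD, n = 4 each), a difference of 5.04 (SE 0.18, limma adjusted p = 2.53e-08), and its other tested probe sets gave 1.98 and 1.29. Plat, tissue plasminogen activator, was higher by 1.47 (SE 0.24, limma adjusted p = 0.000392), with 0.38 on its other tested probe set, which was not called. Plaur, the urokinase receptor, was lower at -0.86 (SE 0.14, limma adjusted p = 0.000305) and was no longer called with spike-in scaling (-0.52). Plau, Plg and Fpr2, a formyl peptide receptor for Anxa1, were under the filter.

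Many, but not all, C2-domain proteins (copines, ferlins, synaptotagmins and their relatives) also meet membranes through calcium. Of 27 listed genes 20 were tested, 5 were called higher, 9 lower and 6 neither, or 25% higher and 45% lower beside 37.5% and 34.2% of all genes, with a median of -0.13. Myof (myoferlin) rose by 5.56 (SE 0.17, limma adjusted p = 1.78e-08) and Syt9 by 2.66 (SE 0.24, limma adjusted p = 5.43e-06), while Syt7, a synaptotagmin of lysosome exocytosis, was lower at -2.50 (SE 0.18, limma adjusted p = 1.56e-06), with -0.52 and -0.69 on its other tested probe sets, neither of them called. All 4 8-cell arrays read Myof under the 40th percentile, so it passed the filter only through its blastocyst values. Its difference was 7.22 with 1 added and 3.95 with 64. Syt9 lay above that percentile on 1 of the 4 8-cell arrays, and its difference was 3.15 with 1 added and 1.86 with 64. Dysf (dysferlin), known with Anxa1 and Anxa2 in muscle membrane repair, was lower at -1.77 (SE 0.15, limma adjusted p = 3.64e-06).

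Of 23 genes for plasma membrane repair and the ESCRT-III complex, which cuts membrane necks and sheds wounded membrane, 22 were tested, 14 were called higher, 3 lower and 5 neither, or 63.6% higher and 13.6% lower beside 37.5% and 34.2% of all genes, with a median of 0.91. Capn2, a calcium-activated protease, rose by 6.65 (SE 0.12, limma adjusted p = 1.18e-09) and Chmp2b, an ESCRT-III subunit, by 4.42 (SE 0.21, limma adjusted p = 1.29e-07). All 4 8-cell arrays read Capn2 under the 40th percentile, so it passed the filter only through its blastocyst values. Its difference was 7.39 with 1 added before taking logs and 5.47 with 64. The lower genes were Cav1, the coat protein of caveolae, at -1.86 (SE 0.33, limma adjusted p = 0.000623), its partner Cavin1 at -1.52 (SE 0.18, limma adjusted p = 4.72e-05) and Ehd2, an ATPase of caveolar necks, at -1.25 (SE 0.34, limma adjusted p = 0.00765). The stages overlapped on that Ehd2 probe set, and its other tested probe sets gave -2.84 and -3.91 with no overlap. Without probe sets whose identifiers end in _x_at, _s_at or _a_at, Cavin1 gave -0.37 and was not called.

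A further list held 17 genes for phospholipid scramblases and flippases. Some of these set the side of the membrane on which phosphatidylserine, a lipid bound by annexins, lies. Of the 17 genes 10 were tested, 8 were called higher, none lower and 2 neither, with a median of 1.17. That is 80% higher beside 37.5% of all genes higher and 34.2% lower. The flippase Atp8b1 was higher by 2.68 (SE 0.18, limma adjusted p = 8.11e-07) and the scramblase Plscr1 by 1.85 (SE 0.25, limma adjusted p = 8.82e-05). Atp8b1 lay above the 40th percentile on 1 of the 4 8-cell arrays. Its difference was 3.14 with 1 added before taking logs and 1.90 with 64. The smallest called differences were those of Atp11b, at 0.98 (SE 0.17, limma adjusted p = 0.000614), and of Tmem30a, the flippases' shared subunit, at 0.55 (SE 0.17, limma adjusted p = 0.0131). Tmem30a gave -1.74, -0.41 and -0.43 on its other tested probe sets, so its direction depends on the probe set.

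**Figure D3:**
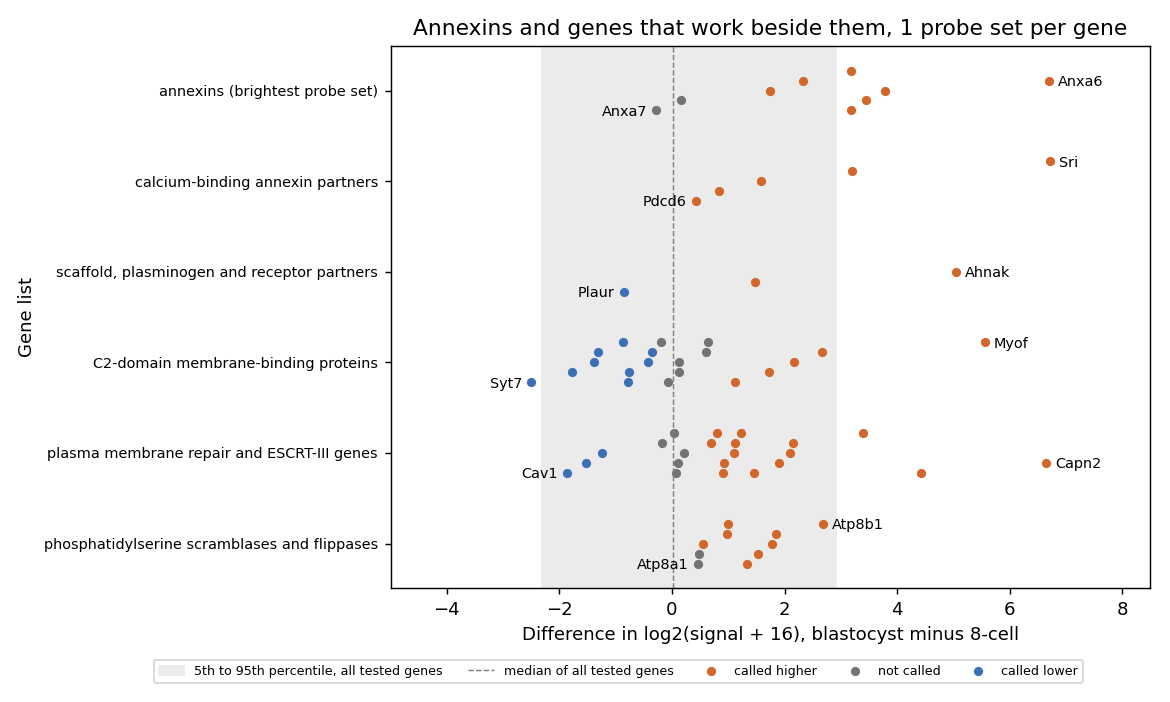
Stage difference in log2(signal + 16), blastocyst minus 8-cell, for the brightest probe set of each gene in the annexin family and in 5 lists of annexin partners and other membrane genes (vertical position within a list only separates the points). Orange, blue and grey points were called higher, lower and neither, the grey band spans the 5th to the 95th percentile of all tested genes and the dashed line is their median. The 7 called annexins lie between 1.75 and 6.70, while the C2-domain list holds 5 orange and 9 blue points.

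Cell type markers and the gap between 3′ and 5′ probe sets of control genes also differed between the stages. In whole embryos fewer cells of a type and less RNA per cell cannot be told apart. The counts of called markers below stand beside 37.5% of all genes called higher and 34.2% called lower. All 7 trophectoderm markers were called higher, with a summed signal of 3087 to 3706 over the 8-cell arrays and 76840 to 85910 over the blastocyst arrays, and 5 of 7 markers of the inner cell mass and primitive endoderm were called higher and 2 lower. All 6 tested oocyte markers were lower, from a sum of 2775 to 4340 down to 280.0 to 372. Of 5 tested cumulus and granulosa markers Amhr2 was called lower, Cyp11a1 higher and 3 neither. This list summed to 6555 to 10260 in 8-cell embryos and to 505 to 628 in blastocysts. Most of the 8-cell sum was Amhr2, which alone went from 8118 ± 1598 to 282 ± 36.8 (SD, n = 4 each). Leukocyte markers summed to 349 to 457 in 8-cell embryos and 370.0 to 544 in blastocysts, and 1 of the 4 tested, Lyz2, was called higher (22.4 ± 11.8 and 46.1 ± 6.65, SD, n = 4 each). Stromal markers summed to 136 to 250.2 and 244 to 277, and 2 of the 3 tested were called higher, Thy1 (11.9 ± 7.52 and 111 ± 11.5) and Pdgfrb (11.4 ± 4.31 and 46.7 ± 2.81). Both lay under the 40th percentile on all 4 8-cell arrays, so they passed the filter only through their blastocyst values. Endothelial and erythroid markers summed to 133 to 307 and 98.5 to 177, and 1 of the 2 tested, Pecam1, was called lower. The other markers read in these lists (Ptprc, Cd14, Itgam, Col1a1, Col3a1, Dcn, Lum, Tek, Alas2 and Hba-a1) were under the filter. The log2 gap between 3′ and 5′ probe sets of Actb was 2.23 to 2.68 on the 8-cell arrays and 0.69 to 0.92 on the blastocyst arrays, and that of Gapdh 1.97 to 2.53 and 1.26 to 1.504. The part of these gaps and of cell makeup in the annexin differences was not tested. Log2 signals correlated at 0.97 to 0.98 within a stage and at 0.77 to 0.79 between stages.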

How the data were processed

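Per the labels' protocols, RNA of the embryos was purified on PicoPure columns, amplified by an assay for small amounts and labelled with biotin. The authors deposited a linear signal intensity per probe set (45101 in all). What software computed it is not stated in the labels used. From the values, each array was scaled to a mean of 500 after removal of the outer 2%, so a difference is relative to each array's average. The 8-cell columns are rounded to 1 decimal and the blastocyst columns are not (at most 0.375% of a column's values), a difference in handling that cannot be told apart from the stage.

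The titles gave each array's stage. After conversion to log2(signal + 16), 64 control probe sets were left out, and blastocyst minus 8-cell was fitted with limma (lmFit and eBayes, Benjamini-Hochberg adjustment over all tested probe sets, or over all genes with the brightest probe set of each). The code of the fit was tried on simulated data in which few probe sets changed. In these data most were called, so that trial does not measure the error rate here. The annexins and the gene lists were chosen with earlier results of these data known. The text names every annexin probe set, Anxa10, Anxa13, S100a10, S100a11, S100a6, Pdcd6 and Ahnak, the 2 highest and 2 lowest called members of each list, and for 2 annexin probe sets the 3 genes of closest profile, and Pef1, S100a4, Ehd2, Plau, Plg, Fpr2 and the cell markers were named after their values were seen. Symbols come from the platform's annotation. Alternatives were other scalings (quantile, median, spike-in controls), filters and added values, a robust fit with an intensity trend, weights per array, a replicate block, averaging the probe sets of a gene, fewer probe set types, and leaving out each array. The number of arrays limits the precision. R 4.3.3, limma 3.58.1 and Python 3.11.15 were used.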

Additional observations from a re-analysis of the deposited data

Results flagged for a closer look

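In 8 of the 40 groups of 4 annexin values, 1 array stood apart, its gap to the nearest other array taking up most of the group's range (Dixon's test at 95%). Chance alone flags about 1 in 20 such groups. On Anxa2 1419091_a_at blastocyst replicate 4 read 8003.7, and the others 7148 to 7258. On Anxa2 1437691_at, which is under the filter, 8-cell replicate 4 read 13.0, and the others 1.6 to 2.2. On Anxa3 1460330_at 8-cell replicate 3 read 283.2, and the others 226.2 to 233.9. On Anxa6 1429246_a_at 8-cell replicate 2 read 17.8, and the others 0.9 to 3.0, and on Anxa6 1429247_at 8-cell replicate 3 read 30.8, and the others 9.1 to 10.4, all of them under the 40th percentile of their arrays. On Anxa7 1416138_at blastocyst replicate 4 read 4091.1, and the others 3525 to 3608, and on Anxa7 1438764_at 8-cell replicate 4 read 303.3, and the others 388.8 to 395.6. On Anxa8 1425789_s_at blastocyst replicate 1 read 40.253, and the others 64.2 to 68.5.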

How the results depend on the processing

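Of the annexin differences under the alternatives, 312 kept their side of the threshold, 7 gained a call, 11 lost one and none of the called ones changed sign. The uncalled difference on Anxa7 1416138_at did change sign, to 0.08 with spike-in scaling. The 1 annexin probe set called lower (Anxa7 1438764_at) became 0 with spike-in scaling and 2 with an intensity trend and robust estimation, and ranged from 0 to 1 when an array was left out. Without probe sets ending in _x_at, _s_at or _a_at, which removes annexin probe sets, 7 annexin probe sets were called, 6 of them higher, and 11 of the plasma membrane repair and ESCRT-III genes were called in place of 17. Averaging a gene's probe sets reversed Esyt1 (-0.129), Syt2 (0.069) and Tmem30a (-0.457), whose probe sets differ. Spike-in scaling moved the median of all tested differences from -0.01 to 0.29 and the share of calls that were higher from 50.6% to 65.0%. The cause was not tested for any value that moved. The replicate numbers do not pair the arrays (correlations of deviations of -0.01, -0.03, -0.02 and -0.02), and with them as a replicate block 18186 probe sets were called in place of 18736, and 15 annexin probe sets in place of 14. The 8-cell values of Anxa1 1448213_at and of Anxa6 1415818_at, 1429246_a_at and 1429247_at lie near the floor of the array. The size of these differences depends on the value added before taking logs.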
